A study of Mus musculus with 13 samples.

Results

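The 7 genes described here, Mbp, Pmp22, Prx, Mag, Sox10, Ngfr and S100b, are textbook markers of Schwann cells, the glia of peripheral nerves, and were picked by symbol from the 42416 Ensembl identifiers of the count tables. They were read in bulk RNA sequencing of interscapular brown adipose tissue (iBAT) in 13 libraries. Of these, 8 libraries carried the label iFAXLKO, an inducible adipocyte knockout of the receptor tyrosine kinase AXL, and 5 were WT controls. Both groups were female littermates homozygous for a loxP-flanked Axl allele. They differed in the Adipoq-CreERT2 transgene, which was made from a bacterial artificial chromosome and is driven by the adiponectin promoter, so that Cre is directed at adipocytes and not at nerve cells. Mice of both genotypes were gavaged with tamoxifen, first at 6 to 8 weeks of age and then every 3 weeks, were fed a high-fat diet (HFD) and were kept at room temperature. The labels number the replicates without saying that each is a separate animal, so p-values measure the spread between these samples.

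Brown fat is densely supplied by sympathetic nerves, whose noradrenaline switches on heat production. The axons are wrapped by Schwann cells. Myelinating Schwann cells wind a compact lipid-rich sheath around 1 axon, built from proteins such as MBP and PMP22, whereas non-myelinating (Remak) Schwann cells hold bundles of thin axons without a sheath. Sympathetic fibres inside fat are mostly of the unmyelinated kind. The transcription factor SOX10 is needed for both forms, and with EGR2 it switches on myelin genes. Several of the 7 genes are also used outside nerves, S100b in adipocytes and Pmp22 in fibroblasts and epithelia, so a whole-tissue level is a sum over cell types.

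The libraries held 22437277 to 32595083 counts, so that 3 counts, the level taken as the detection floor, equal 0.092 to 0.134 counts-per-million (CPM). Mitochondrially encoded genes took 18.33 to 21.31% of counts. Axl itself, the targeted gene, averaged 33.1 CPM ± 6.16 (SD, n = 8) in the libraries labelled iFAXLKO and 27.8 CPM ± 3.82 (n = 5) in WT, and was therefore not lower in whole tissue (log2 fold change 0.25, SE 0.13, edgeR adjusted p = 0.699). Whole tissue also holds cells at which this Cre is not directed, and their share of the Axl reads was not tested. The study examined AXL protein by western blot in the mature fraction of inguinal white fat, which these libraries do not cover. Because whole-tissue Axl was not lower, the group is named by its label throughout. Skeletal muscle markers, a sign of how the depot was dissected, summed to between 2.79 and 5252 CPM in libraries labelled iFAXLKO and between 21.2 and 3667 CPM in WT.

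The levels of the 7 genes spanned more than 3 orders of magnitude once divided by exon length (RPKM, which is CPM per kilobase of exon). S100b, a calcium-binding protein of glia, lay highest at 125 RPKM ± 36.5 (SD over 13 libraries). Pmp22, a tetraspan protein of compact myelin, followed at 15.5 RPKM ± 2.73. Mbp, the basic protein that holds the cytoplasmic faces of myelin together, stood at 3.96 RPKM ± 0.496. These 3 levels kept their order in 13 of 13 libraries, and their ranges over libraries did not overlap. Sox10 (0.756 RPKM ± 0.184), Ngfr (0.568 RPKM ± 0.263) and Prx (0.322 RPKM ± 0.0966) came next. Neighbours among these 3 were not separated beyond their spread: Sox10 exceeded Ngfr in 11 of 13 libraries, and Ngfr exceeded Prx in 11 of 13. Mag was lowest at 0.0422 RPKM ± 0.0226, below Prx in 13 of 13 libraries.

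Cdh19 and Erbb3, which are used by Schwann cells with and without myelin, reached 1.26 and 1.34 RPKM on the same per-length scale. S100b, Pmp22 and Mbp stood above both of these glial genes in every library. Sox10 averaged below them, with ranges that overlapped. Oligodendrocytes, the myelin cells of the central nervous system, also make MBP and MAG. Of 7 oligodendrocyte markers, 6 (all but Olig1) had at most 3 counts in every library. Olig1 held 23 to 109 counts (0.879 to 3.99 CPM). The floor of at most 3 counts in every library also held for 3 of 7 melanocyte markers (Tyr, Tyrp1 and Slc45a2), a lineage that shares Sox10. The other melanocyte markers rose above that floor. Mitf ran from 5.08 to 8.11 CPM and Pmel from 0.224 to 0.497 CPM, while Dct and Mlana reached 0.608 and 0.261 CPM. In bulk tissue, fewer cells of a type and less RNA per cell cannot be told apart, and the share of each gene's RNA that came from Schwann cells was not tested.

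**Figure D1:**
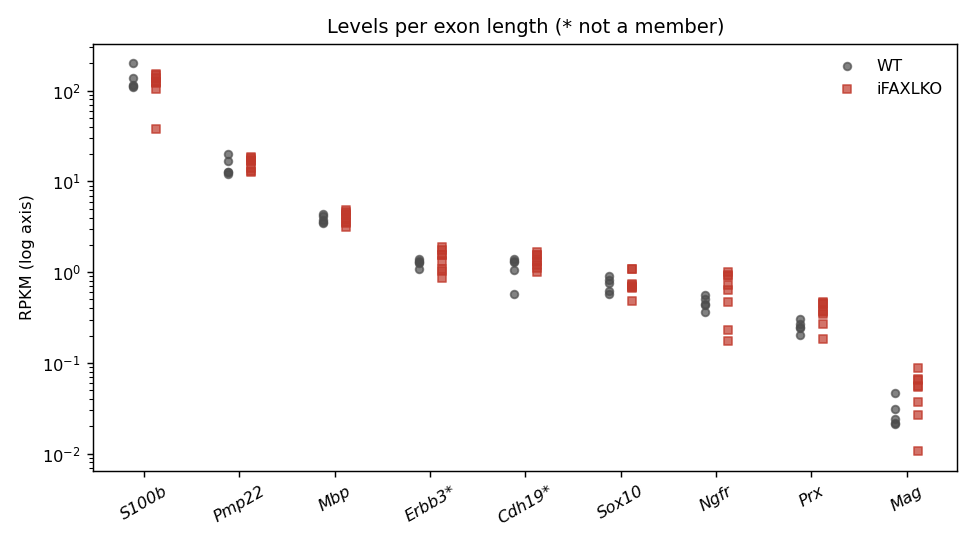
Level per exon length (RPKM, log axis) of the 7 members and of Erbb3 and Cdh19 (marked *), with 1 point per library (circles WT, n = 5, squares labelled iFAXLKO, n = 8). S100b averages 125 RPKM and Mag 0.0422 RPKM, while Cdh19 and Erbb3 average 1.26 and 1.34 RPKM.

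The stretches in front of the annotated starts are shown for the 3 members that the results turn on, S100b, Pmp22 and Prx. Sequences are from RefSeq (GRCm38.p6), and each holds the 250 bases before a start, read along the gene's strand. Windows of 5 of the 7 genes were analysed, and those of Sox10 and Mbp were not analysed here. Capitals mark the letters GCGTGGG on either strand, the core bound by EGR factors. Pmp22 is known to be transcribed from alternative promoters, and the windows of a pair of its annotated starts are given, because the counts sum over all of them.
S100b (chr10:76253586-76253835, +): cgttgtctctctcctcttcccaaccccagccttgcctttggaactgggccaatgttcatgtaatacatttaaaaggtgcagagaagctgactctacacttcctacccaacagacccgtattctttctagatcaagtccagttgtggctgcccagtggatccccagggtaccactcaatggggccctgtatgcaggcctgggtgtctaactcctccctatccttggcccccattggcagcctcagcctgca
Pmp22, first start (chr11:63128732-63128981, +): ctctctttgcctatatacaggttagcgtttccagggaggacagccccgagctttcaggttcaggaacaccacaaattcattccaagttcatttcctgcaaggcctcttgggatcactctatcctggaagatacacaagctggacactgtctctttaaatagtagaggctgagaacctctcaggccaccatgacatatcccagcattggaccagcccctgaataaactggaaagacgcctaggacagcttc
Pmp22, later start (chr11:63132319-63132568, +): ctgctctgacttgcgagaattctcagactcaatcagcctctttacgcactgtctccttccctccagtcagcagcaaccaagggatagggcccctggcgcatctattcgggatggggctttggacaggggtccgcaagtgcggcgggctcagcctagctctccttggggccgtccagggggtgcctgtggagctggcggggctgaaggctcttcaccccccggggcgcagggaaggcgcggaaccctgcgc
Prx (chr7:27499074-27499323, +): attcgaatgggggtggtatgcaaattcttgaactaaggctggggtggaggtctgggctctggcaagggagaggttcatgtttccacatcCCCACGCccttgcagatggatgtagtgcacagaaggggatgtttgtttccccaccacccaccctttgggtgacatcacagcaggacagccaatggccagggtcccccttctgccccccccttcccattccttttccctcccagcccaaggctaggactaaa
The Prx window held 1 match to the EGR letters, on the strand opposite to the gene, and the S100b and Pmp22 windows held none. Of 32536 windows of the same length in front of all genes, 4.34% held this motif. Letters of SOX sites (ACAAAG, in 16.5% of all windows, and ACAAT, in 27.4%, either strand) were absent from the 4 printed windows, and ACAAAG occurred in the window of Mag at chr7:30914923-30915172. G and C made up 48.8% of the first Pmp22 window and 64.8% of the later one, with a median of 52.4% over all windows. A match of letters is a description and not a binding site.

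The libraries labelled iFAXLKO were compared with WT to see whether whole-tissue levels of the 7 markers differed with the label. None of the 7 markers was called. Of these, 6 (all but Mag) passed the filter of more than 1 CPM in at least 5 libraries. They entered edgeR's quasi-likelihood F test over all filtered genes, with Benjamini-Hochberg adjustment. Of the 6, 0 had an adjusted p under 0.05, against 0.127% of the 13360 genes tested (17 genes). With a limit of 2-fold as well it was 0 of 6, against 0.0898%. DESeq2 and limma-voom also called 0 of the 6. Mag was not called in a fit without the filter, given below. Among the 6, 1, Prx, had an unadjusted p under 0.05, against 7.38% of the genes tested. The groups' ranges overlapped for 7 of 7 members, whereas 0.434% of the 13360 filtered genes had ranges that did not overlap. The median log2 fold change of the 6 filtered members was 0.08, beside -0.01 over all genes tested, and 5 of 6 were positive, beside 46.4% of all genes.

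**Figure D2:**
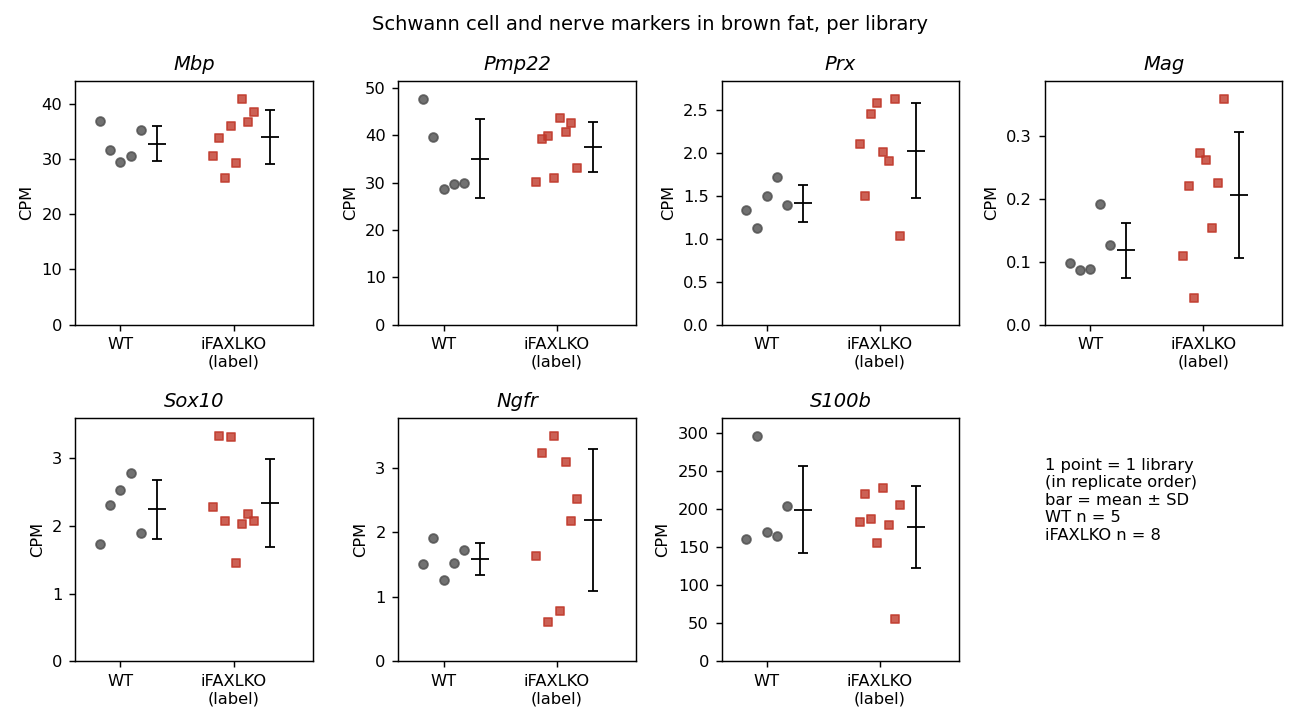
CPM of each member in each library, 1 panel per gene with its own axis from 0, points in replicate order (circles WT, n = 5, squares labelled iFAXLKO, n = 8) and the mean ± SD beside them. The groups overlap in all 7 panels; S100b in the replicate 7 labelled iFAXLKO lies at 55.9 CPM, below the other 12 libraries.

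Among the structural proteins of compact myelin, Mbp (ENSMUSG00000041607, chromosome 18, plus strand) was the steadiest of the 7 genes, with a coefficient of variation of 12.5% over 13 libraries. WT libraries read 36.9, 31.7, 29.4, 30.6 and 35.3 CPM, and the libraries labelled iFAXLKO ran from 26.6 over a median of 34.9 to 40.9 CPM. The lowest and the highest value of all 13 both belonged to the group labelled iFAXLKO, so the WT range lay inside it. The log2 fold change was 0.05 (95% interval -0.16 to 0.27, edgeR adjusted p = 0.958), and 5 of 8 libraries labelled iFAXLKO exceeded the WT mean. With at least 617 Mbp counts in each library, this interval is set by the spread between libraries more than by depth.

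Pmp22 (ENSMUSG00000018217, chr11:63128982-63159547, plus strand) read 47.6, 39.6, 28.6, 29.6 and 29.9 CPM in WT. The libraries labelled iFAXLKO lay between 30.2 and 43.7 CPM with a median of 39.6. The WT values thus formed a low trio and a higher pair, and 1 of the pair was the highest of all 13 libraries. The log2 fold change was 0.10 (95% interval -0.19 to 0.38, edgeR adjusted p = 0.931). It was 0.23 without replicate 1 of WT and 0.04 to 0.05 without replicate 3, 4 or 5 of WT, with no call. The libraries were also split by the range of the library number in their descriptions, a number whose meaning the labels do not give. The lower range (n = 6) held 4 libraries labelled iFAXLKO and 2 of WT, the upper (n = 7) 4 and 3. The difference in mean log2 CPM was -0.32 in the lower range and 0.44 in the upper. The 2 WT libraries of the lower range are the higher pair.

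Prx (ENSMUSG00000053198, chr7:27499324-27520214, plus strand) encodes periaxin, a scaffold that links the myelinating Schwann cell to its basal lamina. It was the member nearest to the limit. WT libraries read 1.34, 1.13, 1.5, 1.72 and 1.39 CPM, and the libraries labelled iFAXLKO ran from 1.03 over a median of 2.06 to 2.63 CPM. In 7 of 8 libraries with that label Prx exceeded the WT mean of 1.42 CPM ± 0.216 (SD, n = 5), while the remaining library was the lowest of all 13. The log2 fold change was 0.52 (SE 0.21, 95% interval 0.07 to 0.96), with an unadjusted edgeR p of 0.0260 and an adjusted p of 0.609. An exact permutation test over all 1287 assignments of the group labels, 2-sided as all tests here, gave p = 0.0544, where the smallest possible is 0.000777. The difference had the same sign in both ranges of library numbers (0.75 and 0.23). Without WT replicate 1 or 2 the unadjusted edgeR p was 0.0509 or 0.0651. The value was 0.25 (adjusted p = 1.00) in an edgeR fit with the mean level of 10 fibroblast markers as a covariate. That mean log2 CPM itself differed by label, at 4.33 to 4.97 in WT and 4.92 to 5.65 in libraries labelled iFAXLKO. The covariate thus nearly follows the group, and this fit cannot tell the covariate from the group. An antisense gene, Gm15541, shares 300 exon bases with Prx and averaged 8.1 counts beside 49.0 for Prx, and the strand setting of the counting is not given in the sources used here.

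Mag (ENSMUSG00000036634, chr7:30899176-30914873, minus strand), a sialic acid-binding adhesion protein of the myelin sheath next to the axon, was barely detected. WT libraries held 3, 2, 3, 5 and 3 Mag reads, and libraries labelled iFAXLKO held 1 to 9, so that 4 of 5 WT libraries and 2 of 8 labelled iFAXLKO were at or below the floor of 3 counts. In an edgeR fit without the filter the log2 fold change was 0.79 (95% interval -0.15 to 1.73, adjusted p = 0.736), and 0.0661% of the 25735 genes of that fit were called. A small change in Mag was not detectable at this depth.

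Sox10 (ENSMUSG00000033006, chr15:79154908-79165240, minus strand), the lineage factor, read 1.73, 2.30, 2.53, 2.79 and 1.90 CPM in WT. The libraries labelled iFAXLKO ran from 1.46 over a median of 2.13 to 3.33 CPM, and enclosed the whole WT range. The log2 fold change was 0.06 (95% interval -0.36 to 0.48, edgeR adjusted p = 0.979). Its sign differed between the ranges of library numbers (0.41 and -0.30).

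Ngfr (ENSMUSG00000000120, chr11:95568818-95587735, minus strand) encodes the low-affinity neurotrophin receptor p75, high in immature, non-myelinating and injured Schwann cells and also present in mesenchymal cells. WT libraries were close together at 1.51, 1.91, 1.26, 1.53 and 1.73 CPM. The libraries labelled iFAXLKO were spread from 0.604 over a median of 2.34 to 3.49 CPM. Their SD of 1.10 CPM compares with 0.245 CPM in WT, and 6 of 8 lay above the WT mean of 1.59 CPM while replicates 3 and 5 (0.604 and 0.785 CPM) lay below every WT library. The log2 fold change was 0.47 (95% interval -0.28 to 1.23, edgeR adjusted p = 0.833). It was 0.15 (edgeR adjusted p = 1.00) with the fibroblast covariate, which itself nearly follows the group. Whether the spread itself differed between the groups was not tested.

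S100b (ENSMUSG00000033208, chr10:76253853-76261159, plus strand) was the only member with a lower mean in the group labelled iFAXLKO, 177 CPM ± 54.2 (SD, n = 8) against 199.7 CPM ± 57.0 (n = 5). WT libraries read 161, 296.9, 170.2, 166 and 205 CPM, and those labelled iFAXLKO ran from 55.9 over a median of 185 to 228 CPM. Replicate 2 of WT stood above all other libraries and replicate 7 labelled iFAXLKO far below them, a 5.31-fold span between extremes. The log2 fold change was -0.17 (95% interval -0.74 to 0.39, edgeR adjusted p = 0.942). It was -0.04 without replicate 7 labelled iFAXLKO and 0.01 without replicate 2 of WT. The gene lies across from Dip2a on the opposite strand, with 0 exon bases in common.

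Relatives of the 7 genes in the nerve were read from lists of each role. Among myelin proteins and lipid enzymes, 8 of 15 genes passed the filter and 0 were called, with a median log2 fold change of 0.16. Gldn, gliomedin, which gathers sodium channels at nodes, read 7.30 CPM ± 4.48 in libraries labelled iFAXLKO and 14.8 ± 5.99 in WT (log2 fold change -1.02, adjusted p = 0.595). Mal, a lipid raft protein, had a log2 fold change of 0.39 (adjusted p = 0.748), and Drp2, a partner of periaxin at the outer Schwann cell membrane, of 0.41 (adjusted p = 0.760). Cldn19, a tight junction protein of the sheath, was under the filter, with 10 counts over 5 WT libraries and 44 over 8 labelled iFAXLKO.

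The genes listed for non-myelinating Schwann cells lay on the positive side, with no call. The list also holds Cdh19, used by Schwann cells with and without myelin, so it does not single out the non-myelinating form. Of 15 listed genes, 11 passed the filter, 0 were called, and 11 of 11 had a positive log2 fold change, beside 46.4% of all genes. Their median was 0.30, and 3 had an unadjusted edgeR p under 0.05, beside 7.38% of all genes. Scn7a, an atypical sodium channel, read 16.6 CPM ± 2.02 (SD, n = 8) in the libraries labelled iFAXLKO and 12.7 ± 2.39 (n = 5) in WT (log2 fold change 0.38, SE 0.12, adjusted p = 0.462), above the WT mean in 8 of 8. Tnfrsf21, a death receptor with a part in axon pruning, read 11.9 CPM ± 1.604 against 8.73 ± 1.91 (log2 fold change 0.44, SE 0.14, edgeR adjusted p = 0.490), and Cadm4, the adhesion molecule by which Schwann cells bind axons, gave 0.38 (adjusted p = 0.512). Their ranges overlapped between groups for Scn7a and Tnfrsf21.

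In the same libraries 10 of 10 fibroblast markers had an unadjusted edgeR p under 0.05 on the higher side, beside 7.38% of all genes on either side. Their median log2 fold change was 0.63, with 0 called. They varied together (mean pairwise r 0.52), so they are not 10 independent results. Their summed level was 407 to 754 CPM in libraries labelled iFAXLKO and 286 to 463 CPM in WT. Macrophage markers were on the same side, with 7 of 8 positive, beside 46.4% of all genes. Their median was 0.41, with sums of 99.1 to 203 CPM against 86.2 to 125 CPM. Brown adipocyte markers were on the lower side in 10 of 10, where 46.4% of all genes were on the higher side, with a median of -0.15. Nerve sheath cells other than Schwann cells, perineurial and endoneurial, had 4 positive and 4 negative values among 8 filtered genes (median 0.03, 0 called), nearest to a call being Sox9 (-0.47), Cldn1 (0.60) and Osr2 (-0.17). The part of these cells in the values of the Schwann genes was not tested.

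**Figure D3:**
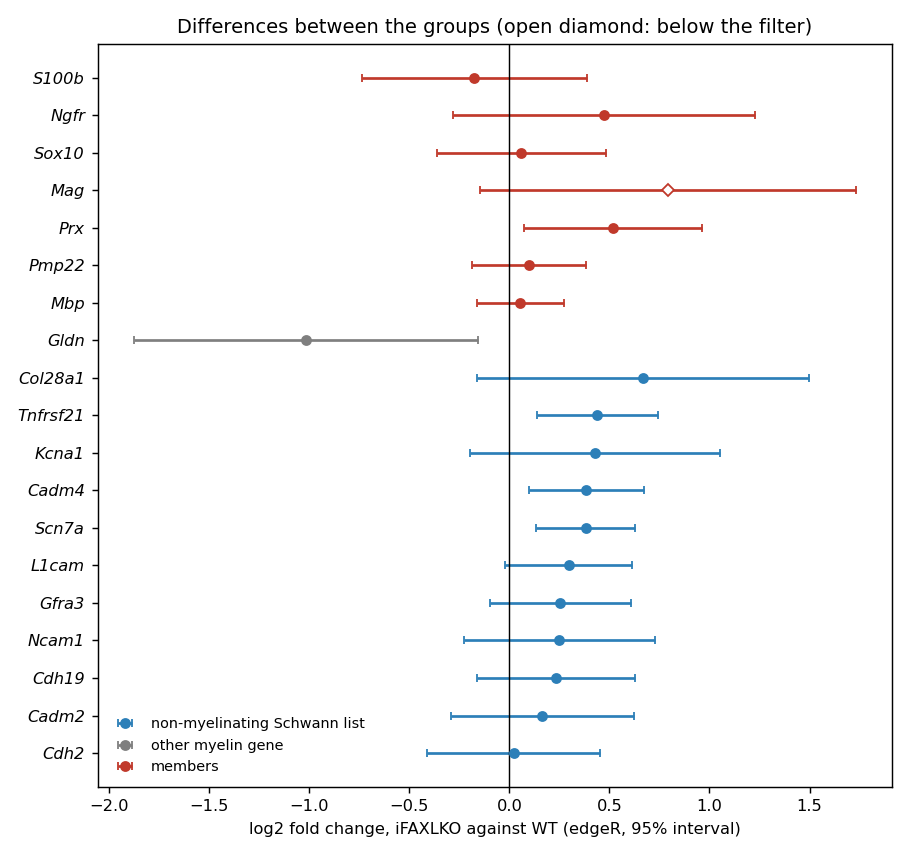
Log2 fold change of libraries labelled iFAXLKO against WT with its 95% interval from edgeR, for the 7 members (red), Gldn (grey) and the 11 filtered genes of the non-myelinating Schwann list (blue); an open diamond marks Mag, fitted without the filter. All 11 blue points lie right of 0, with Scn7a at 0.38, while among the members the interval of Prx (0.07 to 0.96) alone leaves out 0.

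Regulators of the Schwann lineage gave 0 calls among 6 filtered of 12 listed genes. Egr2, the partner of SOX10 on myelin genes, was under the filter at 0.545 CPM ± 0.220 in libraries labelled iFAXLKO and 0.522 ± 0.366 in WT. Its co-repressors read in opposite directions: Nab1 had a log2 fold change of -0.24 (edgeR adjusted p = 0.664) and Nab2 of 0.23 (edgeR adjusted p = 0.734), with Nfatc4, a calcineurin-dependent factor, at 0.18. Neuregulin signalling, by which axons instruct Schwann cells, gave 0 calls among 9 filtered of 10 genes (median 0.11), with Adam22 at 0.45 and Adgrg6, an adhesion receptor needed for myelination, at 0.36 (adjusted p = 0.707 and 0.709). Adam17, a protease that trims neuregulin, stood at -0.14. Nrg1 itself had at most 3 counts in every library.

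Sympathetic neurons keep most of their messenger RNA in cell bodies outside the depot. Of 16 listed genes only Stmn2 and Syp passed the filter, with log2 fold changes of -0.10 and 0.01, and Th, Dbh, Npy, Nefm, Prph and Gap43 had at most 3 counts in every library. These counts say nothing of how many fibres ran through the tissue. The neurotrophin list, ligands and receptors that guide and keep sympathetic fibres, gave 0 calls among 12 filtered of 18 genes. Gfra2, a receptor subunit for neurturin, was nearest to a call with 3.59 CPM ± 0.441 against 2.75 ± 0.260 (log2 fold change 0.38, edgeR adjusted p = 0.480), above the WT mean in 8 of 8, followed by Nrn1 at 0.40 (adjusted p = 0.609) and by neurturin itself, Nrtn, at 0.41 (adjusted p = 0.745).

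To see whether the 7 markers varied together from library to library, log2 CPM values with the group means subtracted were correlated over the 13 libraries, and p-values came from 100000 permutations adjusted over the 21 pairs. Only 1 pair, Mbp and Ngfr, passed (Pearson r = 0.79, permutation p = 0.00074, adjusted p = 0.0155). Spearman's rho was 0.69 (permutation p = 0.0108, adjusted p = 0.226). The relation was present in the lower and the upper range of library numbers (r = 0.83 and 0.95), but r was 0.47 without the 2 libraries farthest from the median, and it no longer passed without replicate 3, 5 or 6 labelled iFAXLKO. The relation therefore rests on few libraries, those with the lowest Ngfr and the highest Mbp.

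Most of the other pairs had a negative r. Sox10 and Mbp gave r = -0.01, while Sox10 with Ngfr (r = 0.55) and S100b with Prx (r = -0.55) each had an adjusted permutation p of 0.300. Over the 6 filtered members the mean of the 15 pairwise r values was -0.06, with 4 positive. The same mean was 0.37 among the 11 genes of the non-myelinating list, with 49 of 55 pairs positive. It was 0.10 among Schwann reference genes, 0.52 among fibroblast markers and 0.98 among muscle markers. These means are descriptions over genes of the same 13 libraries and carry no test.

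Each member was also set against the mean log2 CPM of 5 marker lists (Schwann reference, muscle, fibroblast, endothelial, brown adipocyte), 35 relations in all. By Pearson's r, 0 of 35 passed after adjustment. The smallest permutation p of a Pearson r belonged to Prx and the endothelial score (r = 0.56, p = 0.0439, adjusted p = 0.400; rho = 0.58, p = 0.0427, adjusted p = 0.369), with r = 0.89 and 0.14 in the lower and upper range, and 0.40 once the 2 farthest libraries were dropped. By Spearman's rho 0 of 35 passed as well, and the smallest permutation p belonged to S100b and the brown adipocyte score (rho = 0.65, p = 0.0196, adjusted p = 0.369; r = 0.49, p = 0.0893, adjusted p = 0.400). Within the lower and upper range r was 0.62 and 0.62, and without the 2 farthest libraries it was 0.41. With the Schwann reference score itself, r lay between -0.43 (Pmp22) and 0.15 (Prx), and Sox10 gave 0.07.

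**Figure D4:**
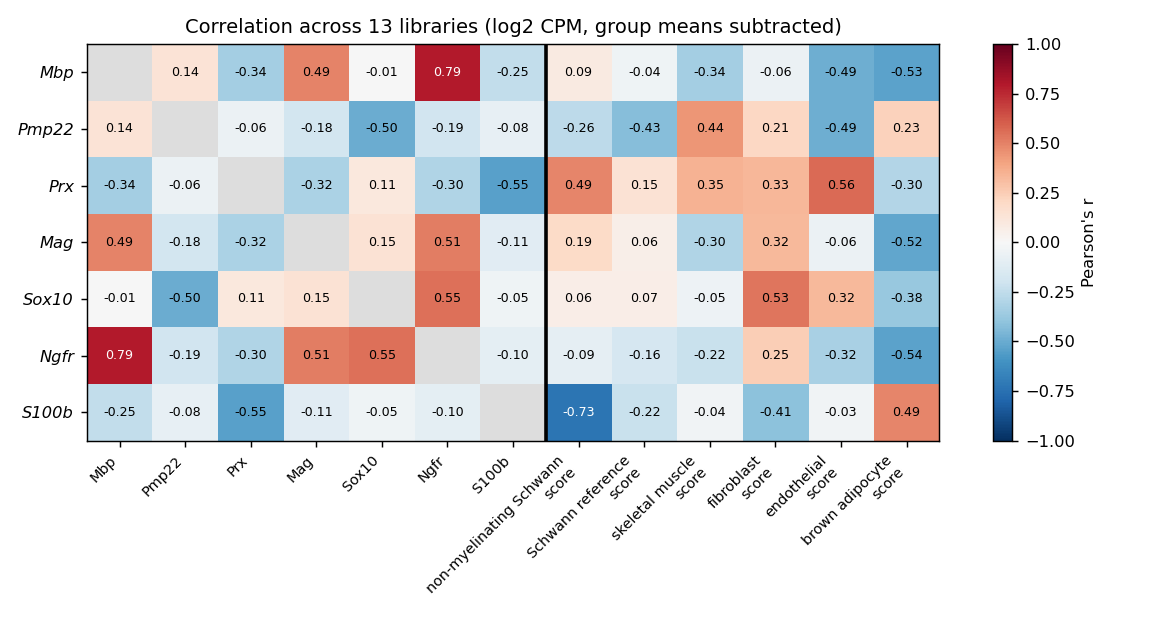
Pearson's r over 13 libraries (log2 CPM, group means subtracted) between the members (left of the line) and between members and marker-list scores (right of the line), with blue for negative and red for positive values. The pair Mbp and Ngfr (0.79) and the cell of S100b with the non-myelinating Schwann score (-0.73) are the deepest, and the Schwann reference column stays between -0.43 and 0.15.

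A further score, the mean of the 11 filtered genes of the non-myelinating Schwann list, was added after the data had been seen. For it, p-values were adjusted over 42 relations. S100b ran against it: rho was -0.89 (permutation p = 0.00013, adjusted p = 0.00546) and r was -0.73 (p = 0.0161, adjusted p = 0.397). The inverse order held in the lower and upper range of library numbers (r = -0.99 and -0.85) and without the 2 farthest libraries (r = -0.75). The library with the highest S100b, replicate 2 of WT, had the lowest score (1.39), and the library with the lowest S100b, replicate 7 labelled iFAXLKO, had the highest (2.60). Without replicate 2 of WT, rho was -0.70 and no longer passed (adjusted permutation p = 0.201), while r was -0.79 (adjusted permutation p = 0.0218). Without replicate 7 labelled iFAXLKO, r was -0.91 (adjusted permutation p = 0.00672) and rho was -0.85 (adjusted permutation p = 0.0361). Gene by gene, S100b had a negative r with 10 of the 11, from -0.81 (Col28a1) to 0.08 (Cadm4). Both measures come from the same libraries and share their scaling.

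**Figure D5:**
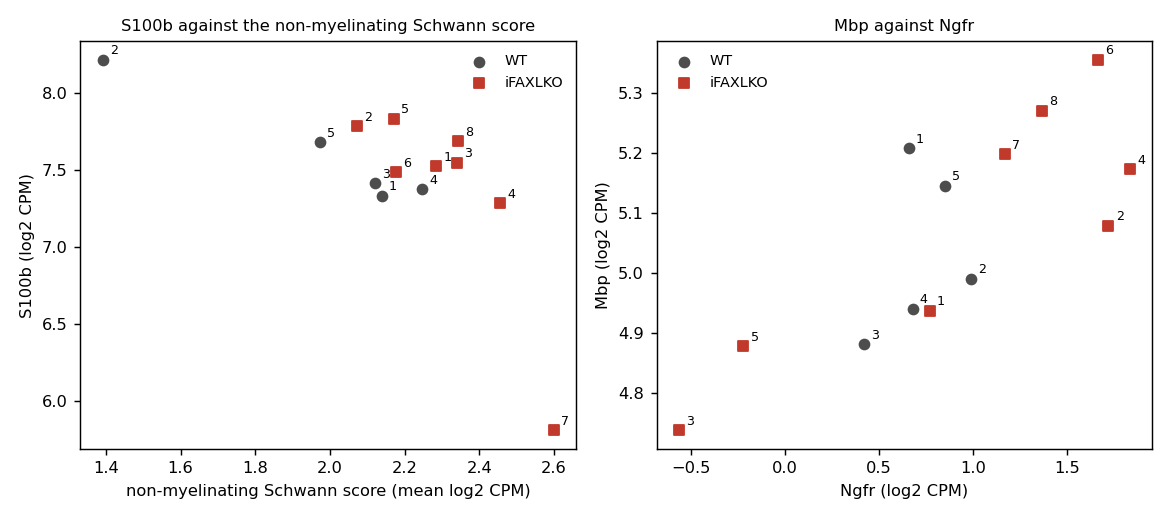
Left, S100b (log2 CPM) against the mean log2 CPM of the non-myelinating Schwann list; right, Mbp against Ngfr (both log2 CPM), with 1 point per library and its replicate number (circles WT, squares labelled iFAXLKO). S100b is highest in WT replicate 2, at a score of 1.39, and lowest in replicate 7 labelled iFAXLKO, at 2.60, and Mbp and Ngfr have r = 0.79 once group means are subtracted.

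The genes most like each member were sought among all filtered genes by Pearson's r over the 13 libraries, as a description with no test. Here the group means were not subtracted, so a difference shared between the groups also enters these r values. S100b was most like Snx32 (0.97), Idh2 (0.94), a mitochondrial isocitrate dehydrogenase, and Afg1l (0.94), a mitochondrial ATPase. Mbp was most like Cpped1 (0.94), Gprc5b (0.94) and Mblac2 (0.93), and Gprc5b was also among the 3 most like Ngfr (0.88), beside Chtf8, a symbol that 2 identifiers carry (0.89 each). Prx was most like Cdh13 (0.91), the T-cadherin that binds adiponectin on vessels, Smtn (0.88), a smooth muscle protein, and Nab2 (0.88), the EGR co-repressor. For Sox10 these were Bcl2l12 (0.90), Ralgds (0.87) and Fam161b (0.86), for Pmp22 Stambp (0.83), Rela (0.83) and Cdk7 (0.81), and for Mag Sfrp2 (0.81), Epb41l3 (0.81) and Astn2 (0.79). None of the 7 members appeared among the 3 genes most like another member.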

How the data were processed

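Total RNA of dissected, snap-frozen iBAT was extracted with Trizol, and libraries were made with a TruSeq RNA kit from poly-A RNA per the labels (the study's methods name rRNA depletion). The authors deposited raw gene counts per library. The submitters' processing notes name bcl2fastq 2.20, fastp 0.20.0, STAR 2.7.4a, DESeq2 and GRCm38.p6, whereas the methods name other trimming and alignment tools. The counting tool and strand setting are not given in the sources used here, so reads of overlapping genes cannot be assigned by strand.

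From the deposited counts, genes above 1 CPM in 5 or more libraries entered the test in edgeR 4.0.16 (R 4.3.3, TMM factors, robust quasi-likelihood F test, Benjamini-Hochberg, limit 0.05). SE is the log2 fold change divided by the root of F. On simulated data of the same 13360 genes, 91% of changes of 1 and 100% of changes of 2 on the log2 scale were recovered. These changes were placed only in genes averaging above 2 CPM, and smaller changes were not simulated. The shares therefore do not give the power for the members. CPM values use TMM factors, and log2 CPM for correlations and permutation tests adds a prior count of 2. RPKM divides CPM by the union of exons in GENCODE M21. Some genes of the lists are not reported here. Symbols were found for 42263 of 42416 identifiers.

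The 7 members and the marker lists were chosen with earlier results of these data known. Named are all members, Axl and the 3 genes most like each member. From a nerve list where none was called, the 3 genes of smallest p are named, once where several lists hold them. Other lists are given as counts, apart from the melanocyte markers and Olig1. Cdh19, Erbb3 and Egr2 were added for their roles, and Syp and Stmn2 as the only filtered axon genes. Groups were taken from the labels. Libraries of 1 group differed beyond sampling noise (chi-square per degree of freedom at least 15.3), which does not show that each came from a separate animal. Each library was counted as 1 replicate. Alternatives were DESeq2 1.42.0, limma-voom (limma 3.58.1), other scalings and filters, covariates, a replicate block and leaving out each library. Correlations used Python 3.11.15 with numpy 2.4.6 and scipy 1.17.1.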

Additional observations from a re-analysis of the deposited data

Results flagged for a closer look

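S100b in replicate 7 labelled iFAXLKO, at 55.9 CPM, stood apart from the other 7 libraries of its group, whose lowest value was 156 CPM: the gap to its neighbour was 0.58 of the whole range, over Dixon's 95% limit of 0.526. Of 14 groups of values examined (7 genes in 2 groups) this was the only one, and chance alone marks about 1 in 20. In the same library Mbp (36.6 CPM), Pmp22 (42.6 CPM) and Ngfr (2.18 CPM) lay within the range of the other libraries of the group, and Prx, at 2.63 CPM, was its highest. The library also had the highest mean log2 CPM of fibroblast markers (5.65) and of macrophage markers (4.00), the highest Axl (43.9 CPM) and the lowest Gldn (2.55 CPM) of all 13, and their part in the S100b value was not tested. Without this library the S100b log2 fold change was -0.04 in place of -0.17.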

How the results depend on the processing

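Under 13 alternative fits and 13 fits that left out 1 library, the count of members called stayed at 0, as did that of each of the 8 lists of nerve genes. The count over all genes was 17, and was 67 with DESeq2, 7 with the replicate block and 8 with the fibroblast score as a covariate, and lay between 14 and 19 in the fits that dropped 1 library. With the fibroblast covariate the log2 fold changes of Pmp22 (-0.022), Sox10 (-0.37), S100b (0.13), Axl (-0.22) and Gldn (0.18) turned, and the cause was not tested. The fibroblast score nearly follows the label, so that fit cannot tell it from the group. Replicate numbers did not pair the samples (correlations of deviations 0.39, 0.42, 0.19, 0.18 and -0.61; 2 of 5 best with their own number). The replicate block over numbers 1 to 5 gave 7 genes where the same 10 libraries without it gave 12, a comparison added after seeing the data, and Mbp turned in both (-0.072 and -0.069). When 1 library was left out, Sox10 ran from -0.029 to 0.15 (turned without WT replicate 1 or replicate 2 or 4 labelled iFAXLKO) and S100b from -0.24 to 0.012 (turned without WT replicate 2). Pmp22 then ran from 0.043 to 0.23, Mbp from 0.012 to 0.10 and Ngfr from 0.36 to 0.61. Ngfr was 0.063 and S100b -0.0079 with the block (0.31 and -0.035 in the same libraries without it), and S100b was -0.013 with limma-voom. When 1 library was left out, the count of member pairs past the limit was 0 to 1, and that of score relations 0 to 1 (Ngfr with the brown adipocyte score, without WT replicate 2). For S100b and the non-myelinating score, rho ran from -0.93 to -0.70. Depth limits Mag most, with 1 to 9 reads in a library.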
